A study of Mus musculus with 14 samples.

Results

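The genes described here are 37 listed members of NF-kB and TNF signalling: ligands, receptors, adaptors, kinases, the transcription factor subunits, their inhibitors and a few target genes. Each gene was read from the probe of highest mean among the probes that name it alone. By that rule 31 of the 37 were measured, of 19938 genes tested in all. Tnfsf12 and Bcl2a1b had only probes that name several genes, and Nfkb1, Chuk, Traf3 and Ripk1 are not analysed here. RNA came from tumour-free liver of female mice aged 14 months, with 3 wild-type (C57BL/6), 5 Mdr2-KO and 6 Mdr2-KO/IL6-KO Affymetrix arrays. Mdr2-KO/IL6-KO livers, called the double knockout below, lacked both targeted genes, Mdr2-KO livers lacked 1 of them, and no group lacked IL6 alone. The strain of the knockouts is not given in the sources used here, so strain and loss of the targeted genes cannot be told apart. The labels do not say that each array is a separate mouse, so p-values measure the spread between arrays, which may be technical. The values are log2 signals as deposited, and a difference is in log2 units, first group minus second, with its standard error (SE).

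NF-kB is a family of dimeric transcription factors held in the cytoplasm by IkB proteins. In the canonical pathway, TNF and other stimuli activate the IkB kinase complex, IkB is degraded, and dimers that hold Rela or Rel enter the nucleus. In the noncanonical pathway, receptors such as the lymphotoxin beta receptor and Tnfrsf12a stabilise the kinase NIK (Map3k14), which leads to processing of the Nfkb2 product and release of dimers with Relb. Several targets of NF-kB, among them Nfkbia, Nfkbie, Tnfaip3 and Tnip1, encode inhibitors that close a feedback loop. In liver, TNF and NF-kB are known for their part in hepatocyte survival and regeneration and in inflammation. The gene long called Mdr2 is now Abcb4, which encodes the transporter that moves phosphatidylcholine into bile, and mice without it develop chronic bile duct injury. Il6 encodes interleukin 6, a cytokine of the acute phase response.

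The signal of Abcb4 was 10.36 ± 0.03 in wild type (SD, n = 3), 9.01 ± 0.19 in Mdr2-KO (n = 5) and 9.05 ± 0.20 in the double knockout (n = 6). Whether the probe reads the deleted part is not given in the sources used here. Il6 lay below the background of the array in every group, at means of 3.22, 3.07 and 3.48, so it checks nothing. The background was set at 5.48, since 95% of 1027 olfactory receptor genes had a mean below this value. Averaged over a list of markers, hepatocyte genes read between 12.5 and 12.6 on every array. Cholangiocyte markers passed the test upward for 3 of 7 in Mdr2-KO and 4 of 7 in the double knockout against wild type. Macrophage markers did so for 4 of 10 in both, and stellate cell markers for 3 of 8 in both. Of all genes, 8.89% and 6.96% passed upward in these comparisons. Differences were below 0 for 4 and 3 of the 10 macrophage markers and for 3 and 2 of the 8 stellate markers. Mean cholangiocyte marker signal was 6.62 to 7.11 in wild type, 7.21 to 7.86 in Mdr2-KO and 7.33 to 8.04 in the double knockout, and the wild-type arrays lay below every knockout array. The macrophage list gave 8.29 to 8.64, 8.77 to 9.09 and 8.80 to 9.18, and the stellate list 7.88 to 8.03, 7.92 to 8.68 and 8.16 to 8.68. T and NK cell markers passed downward for 3 of 8 and B cell markers for 2 of 5 in both knockouts. Wild-type array 2 was the highest for both lists, at 6.45 and 7.16. Of all genes, 12.1% and 5.33% passed downward. Of the 5 B cell markers 1 went the other way without passing, by 0.80 and 1.10. Endothelial markers passed downward for 2 of 7 in Mdr2-KO. Neutrophil markers passed for 0 of 9 in either knockout (1 of 9 in Mdr2-KO and 0 in the double knockout at an unadjusted p under 0.05), but Mdr2-KO array 3 (8.73) and double-knockout array 2 (7.71) stood apart from the other arrays (5.60 to 5.95). No marker value was at 0, no gene of any marker list passed between the knockouts, and the part of these cell types in the results below was not tested. In whole tissue, fewer cells of a type and less RNA per cell cannot be told apart.

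Against wild type, 7 of the 31 members passed the test in Mdr2-KO (adjusted p below 0.05, limma with Benjamini-Hochberg adjustment over all genes), 6 of them higher and 1 lower. That is 22.6% of the members beside 21.0% of all genes tested, so the share of members called was near the background. By direction, 19.4% of the members were higher beside 8.89% of all genes, and 3.23% were lower beside 12.1%. The median difference of the members was 0.14, and that of all genes was -0.07. Without the third of genes of lowest mean, the median of all genes was -0.02. A mean under the background of the array was found for 29.0% of all genes and for 2 of the 31 members. The part of signal level in the shares of this paragraph was not tested. In the double knockout, 8 of 31 (25.8%) passed against wild type, beside 12.3% of all genes. Of these 7 were higher and 1 was lower, or 22.6% and 3.23%, beside 6.96% and 5.33% of all genes, and the median was 0.17 beside -0.02. Both comparisons use the same 3 wild-type arrays. Between the knockouts, 3 of 31 (9.68%) passed, beside 8.76% of all genes. Of these 2 were higher in the double knockout (6.45%, beside 5.04%) and 1 was lower (3.23%, beside 3.72%), with a median of 0.10 beside 0.06.

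The changes were small in size. A change of at least 1.5-fold was reached by 1 called member in Mdr2-KO (Tnfrsf12a), 2 in the double knockout (Tnfrsf12a and Nfkb2) and 0 between the knockouts (where 11 members had an unadjusted p under 0.05 at any size), beside 4.01%, 3.75% and 0.752% of all genes. The arrays of the groups did not overlap for 8 members (25.8%, beside 23.5% of all genes) in Mdr2-KO against wild type. They did not overlap for 9 members (29.0%, beside 15.1%) in the double knockout against wild type, and for 1 member (3.23%, beside 7.34%) between the knockouts. In all, 11 members passed in at least 1 comparison and 20 in none. Tnfrsf12a, Nfkb2, Relb and Tnip1 rose against wild type in both knockouts. The shares of all genes that passed in at least 1 comparison, or in both knockouts, are not given here. Whether these counts exceed the background was therefore not tested. The counts depended on single wild-type arrays: without wild-type array 1, 3 members passed in Mdr2-KO and 5 in the double knockout, and without array 3, 4 passed in Mdr2-KO. Between the knockouts 1 member passed without Mdr2-KO array 1 or without array 3. The shares of all genes called in these fits are not given here. Whether the lower counts are particular to the members was not tested.

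**Figure D1:**
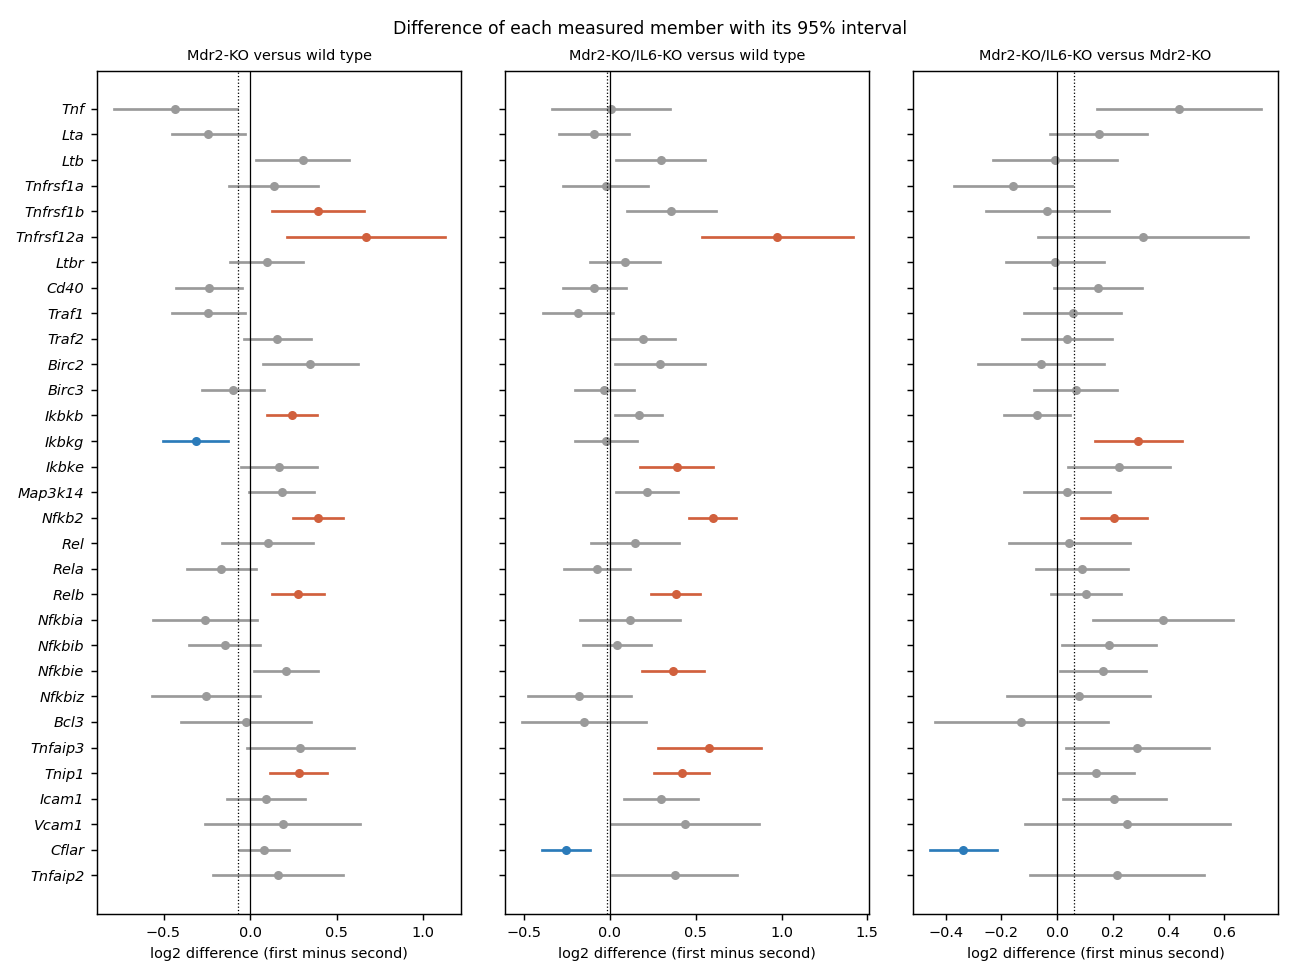
Log2 difference of each measured member (rows, ordered by role) in the 3 comparisons, first group minus second, with its 95% interval from the fit over all genes. Red points passed the test as higher, blue points as lower and grey points did not pass, and the dotted line is the median of all genes tested (-0.07, -0.02 and 0.06). Nfkb2, Relb, Tnip1 and Tnfrsf12a lie to the right of 0 in both comparisons with wild type, and Cflar lies to the left in both comparisons of the double knockout.

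All 7 members that rose in the double knockout against wild type, Tnfrsf12a, Ikbke, Nfkb2, Relb, Nfkbie, Tnfaip3 and Tnip1, had a Mdr2-KO mean between the means of the other groups. Picking genes by a high double-knockout and a low wild-type mean itself favours this order. The share of all genes picked in the same way that show it is not given here. The promoters of these genes were searched on both strands for the NF-kB consensus, a motif of 10 letters, in windows from 250 bases before to 50 bases after each start that RefSeq annotates (GRCm38.p6). No other motif was searched. A match was present in 5.14% of the 27025 genes with a window, and in 8 of the 26 measured members with one (30.8%). Of the 7 risers, 6 had a window and 4 of these held a match (Nfkb2, Nfkbie, Tnfaip3 and Tnip1). Of the other measured members with a window, 4 of 20 held one (Ltb, Rel, Nfkbia and Bcl3). A match is a description of the letters, not of binding. Relb, Cd40, Ikbkb, Nfkbiz and Vcam1 have no window in the table. The 130 bases before the start are printed for the risers with a match and, to show one without, for Tnfrsf12a, in the direction of the gene, with capitals on the letters that match.
Nfkb2 (chr19:46304607-46304736, plus strand): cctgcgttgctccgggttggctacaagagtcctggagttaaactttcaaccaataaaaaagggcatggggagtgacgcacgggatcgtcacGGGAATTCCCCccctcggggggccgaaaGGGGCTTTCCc
Nfkbie (chr17:45555570-45555699, plus strand): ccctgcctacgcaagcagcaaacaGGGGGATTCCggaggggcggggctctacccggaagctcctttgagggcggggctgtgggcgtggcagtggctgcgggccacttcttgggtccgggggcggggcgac
Tnfaip3 (chr10:19015411-19015540, minus strand): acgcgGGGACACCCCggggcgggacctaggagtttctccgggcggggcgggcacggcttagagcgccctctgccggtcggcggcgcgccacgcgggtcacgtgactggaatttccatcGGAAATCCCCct
Tnip1 (chr11:54962941-54963070, minus strand): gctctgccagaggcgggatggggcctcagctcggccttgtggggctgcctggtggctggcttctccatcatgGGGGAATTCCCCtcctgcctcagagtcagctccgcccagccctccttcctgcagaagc
Tnfrsf12a (chr17:23677450-23677579, minus strand): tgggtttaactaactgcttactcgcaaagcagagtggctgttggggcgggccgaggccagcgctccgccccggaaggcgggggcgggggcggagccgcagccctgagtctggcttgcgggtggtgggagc

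In Nfkb2 the matches began 39 and 11 bases before this start, 1 of 3 starts in the table. In Tnfaip3 they began 125 and 12 bases before the start, in Nfkbie 106 and in Tnip1 58, where 4 matches overlap. For comparison, 30 bases around the match are printed for Nfkbia and Ltb, which hold the motif and passed in no comparison.
Nfkbia (chr12:55492657-55492686, minus strand): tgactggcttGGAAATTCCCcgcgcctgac
Ltb (chr17:35194410-35194439, plus strand): aagggtgttcGGAAAGTCCCcgggcagggg
The Nfkbia match began 29 bases before its start and the Ltb match 87, so a match near the start was present both in members that rose and in members that did not pass.

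**Figure D2:**
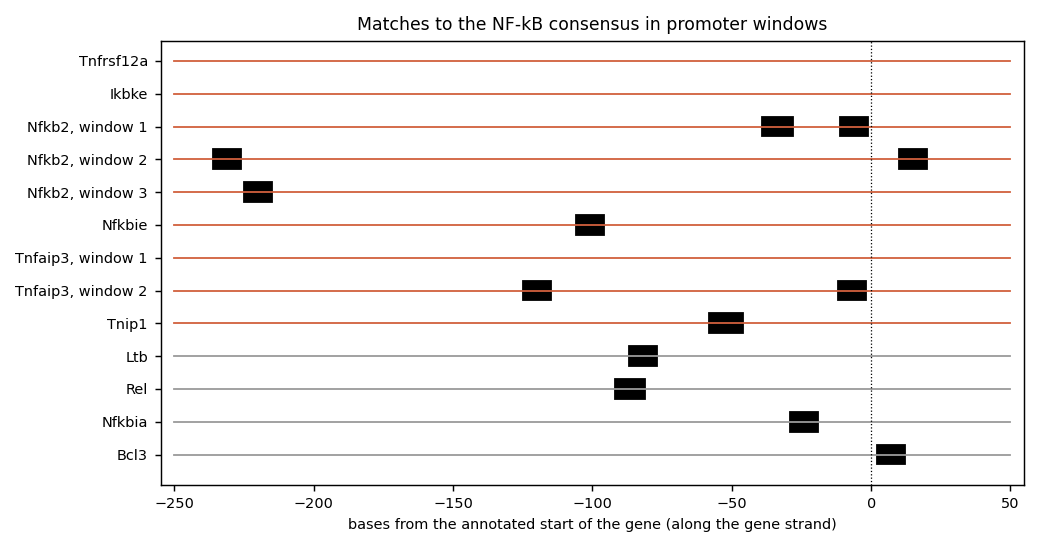
Position of each match to the NF-kB consensus (black blocks) in the promoter windows of the risers (red lines) and of the other measured members with a match (grey lines), in bases from the annotated start along the gene's strand. Matches lie at various distances on both sides of the starts, from 236 bases before a start of Nfkb2 to just after starts of Nfkb2 and Bcl3. Those of Nfkbie (106 bases) and Nfkbia (29 bases) lie before the start. The windows of Tnfrsf12a and Ikbke hold none.

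Among the 3 ligands measured, 0 passed in any comparison by limma, while 3, 1 and 1 had an unadjusted p under 0.05. Tnf, which encodes the founding cytokine of the family, read 6.33, 6.68 and 6.28 in wild type and 5.58, 5.91, 5.91, 6.16 and 6.42 in Mdr2-KO. In the double knockout its lowest value was 6.01, its median 6.52 and its highest 6.60. The Mdr2-KO arrays were the lowest as a group, with array 5 inside the range of wild type. The means of wild type, Mdr2-KO and the double knockout were 6.43 ± 0.22, 6.00 ± 0.31 and 6.43 ± 0.23 (SD, n = 3, 5 and 6, as throughout). Mdr2-KO was -0.43 from wild type (SE 0.17, 95% interval -0.79 to -0.08, adjusted p = 0.0743), and the double knockout was 0.44 above Mdr2-KO (SE 0.14, interval 0.14 to 0.73, adjusted p = 0.0597). Neither passed the threshold. Both were past it without Mdr2-KO array 5 (adjusted p = 0.026 and 0.0206), and the second also without double-knockout array 1 (0.0272) and with array weights (0.0436). The double knockout and wild type differed by 0.00 (interval -0.34 to 0.35, adjusted p = 0.993).

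Ltb and Lta encode the subunits of lymphotoxin, the ligand of the lymphotoxin beta receptor, and are next to Tnf on chromosome 17 with no protein-coding gene between Tnf and either. Ltb read 6.29 ± 0.16, 6.59 ± 0.22 and 6.59 ± 0.18 in the same order, 0.30 above wild type in both (adjusted p = 0.096 and 0.138). Lta lay under the background of the array, and its groups were within 0.24 of each other (adjusted p of 0.0929 or more).

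Among the 5 receptors, Tnfrsf12a, the receptor of the cytokine TWEAK, had the largest difference of all members in both comparisons with wild type. It read 7.09, 7.35 and 7.44 in wild type and 7.91, 7.98, 7.62, 8.24 and 8.04 in Mdr2-KO. The double-knockout range was 7.67 to 8.86 with a median of 8.36. Every knockout array lay above every wild-type array, and the knockouts overlapped. The rise was 0.67 in Mdr2-KO (SE 0.21, 1.59-fold, adjusted p = 0.0377) and 0.98 in the double knockout (SE 0.21, 1.97-fold, adjusted p = 0.00582). The second call held with any single array left out and under every other setting tried. The first was lost without any one of wild-type arrays 1 (adjusted p = 0.13), 2 (0.0596) or 3 (0.0725) or Mdr2-KO arrays 1 (0.0592), 2 (0.0532), 4 (0.0811) or 5 (0.0613), and with quantile normalization (0.0505) or trend and robust moderation (0.0542). Between the knockouts the difference was 0.31 (interval -0.07 to 0.68, adjusted p = 0.259). Tnfrsf12a also had the widest spread of the members within groups, with a pooled SD of 0.338 beside a median of 0.142 over the members. Its promoter stretch, printed above, held no match to the consensus.

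Tnfrsf1b, the second TNF receptor, read 8.12, 8.44 and 8.18 in wild type and 8.93, 8.66, 8.57, 8.47 and 8.56 in Mdr2-KO. Its double-knockout values lay between 8.41 and 8.87, with a median of 8.58. All Mdr2-KO arrays lay above wild type, whereas the lowest double-knockout arrays overlapped it. It rose by 0.39 in Mdr2-KO (SE 0.13, adjusted p = 0.0379), and did not pass when wild-type array 1 (0.133), wild-type array 3 (0.132), Mdr2-KO array 1 (0.0809) or Mdr2-KO array 2 (0.054) was left out, or with quantile normalization (0.0627). The difference in the double knockout was 0.36 (adjusted p = 0.069), and the knockouts differed by -0.03 (interval -0.26 to 0.19).

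The other receptors passed in no comparison. Tnfrsf1a, the receptor that carries most TNF signalling in hepatocytes, read 9.21 ± 0.06, 9.34 ± 0.26 and 9.18 ± 0.12 in wild type, Mdr2-KO and the double knockout. Its difference from wild type was 0.14 (interval -0.12 to 0.39) and -0.02 (interval -0.27 to 0.22), with Mdr2-KO array 3 the highest at 9.76. Ltbr, the lymphotoxin beta receptor, differed from wild type by 0.10 and 0.09 (adjusted p = 0.498 and 0.64). Cd40, a receptor of antigen-presenting cells, was lower in all 5 Mdr2-KO arrays (6.43 to 6.65) than in wild type (6.67 to 6.88), by -0.24, without passing (adjusted p = 0.0705).

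**Figure D3:**
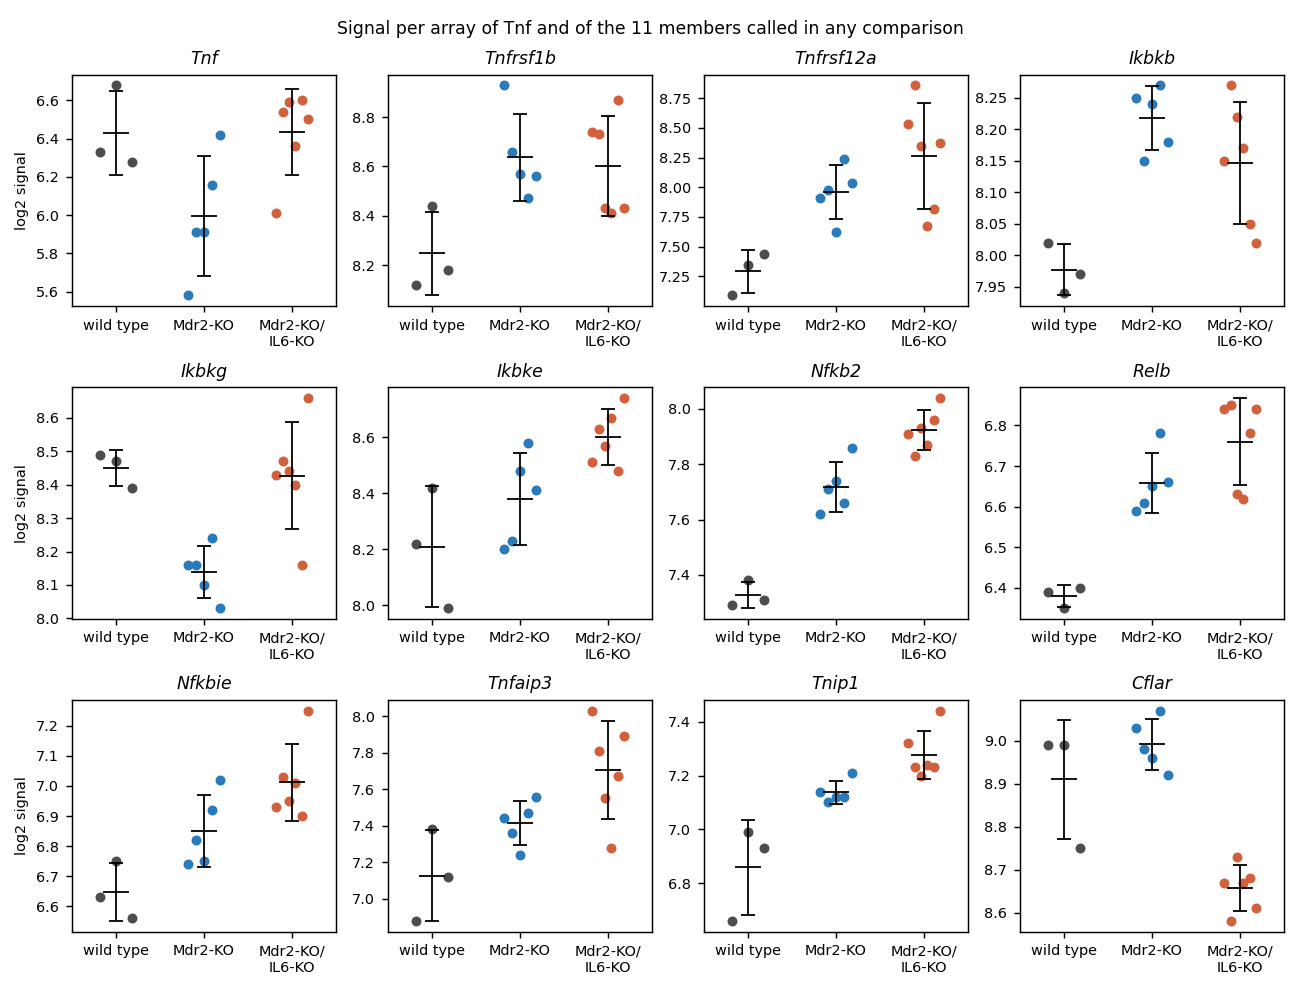
Log2 signal on each array (points) of Tnf and of the 11 members that passed in any comparison, by group, with the mean and SD (bars). Axes do not start at 0 and differ between panels. Nfkb2, Relb, Tnip1 and Tnfrsf12a show every knockout array above wild type, Cflar shows the double knockout below both other groups, and in Ikbkg Mdr2-KO is low.

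The adaptors and ubiquitin ligases that join receptors to the kinases gave 0 calls among the 4 measured in any comparison, where 2, 2 and 0 had an unadjusted p under 0.05. Traf2, which recruits the ligases to TNF receptors, differed from wild type by 0.16 and 0.19 (adjusted p = 0.22 and 0.186). Traf1 lay under the background. Birc3, a ubiquitin ligase, differed by -0.10 and -0.03 (adjusted p = 0.406 and 0.862). Birc2, its neighbour on chromosome 9 with 0 protein-coding genes between them, read 7.51 ± 0.31, 7.86 ± 0.14 and 7.80 ± 0.17, which is 0.35 and 0.29 above wild type (adjusted p = 0.0641 and 0.149). A second Birc2 probe gave the opposite sign (-0.22 and -0.12, adjusted p = 0.175 and 0.596 over all probes), so the direction of Birc2 depends on the probe.

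Of the IkB kinases, Ikbkb, the catalytic subunit of the canonical complex, read 8.02, 7.94 and 7.97 in wild type and 8.25, 8.15, 8.24, 8.27 and 8.18 in Mdr2-KO. Double-knockout values ran from 8.02 to 8.27 with a median of 8.16. The Mdr2-KO arrays lay above wild type without overlap. The rise of 0.24 (SE 0.07, adjusted p = 0.0201) was small and rested on the lowest spread within groups of any member, a pooled SD of 0.0753. It did not pass when wild-type array 2 (adjusted p = 0.0525) or 3 (0.0614) was left out. In the double knockout the difference was 0.17 (adjusted p = 0.11).

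Ikbkg encodes NEMO, the regulatory subunit that binds ubiquitin chains. It was the only measured member that passed as lower in Mdr2-KO against wild type. It read 8.49, 8.47 and 8.39 in wild type and 8.16, 8.16, 8.10, 8.24 and 8.03 in Mdr2-KO, and its median was 8.44 in the double knockout with a range of 8.16 to 8.66. Mdr2-KO lay below every wild-type array, and 5 of the 6 double-knockout arrays lay above every Mdr2-KO array. The fall was -0.31 (SE 0.09, adjusted p = 0.0219), and the call was lost without wild-type array 1 (0.07). The double knockout was 0.29 above Mdr2-KO (SE 0.07, adjusted p = 0.026) and -0.02 from wild type (interval -0.21 to 0.16). The call between the knockouts was lost without Mdr2-KO array 1 (adjusted p = 0.0549) or 3 (0.0596).

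Ikbke, an IkB kinase relative that is itself induced by NF-kB, read 8.22, 8.42 and 7.99 in wild type and 8.20, 8.23, 8.48, 8.58 and 8.41 in Mdr2-KO. It ranged from 8.48 to 8.74 in the double knockout with a median of 8.60. The double-knockout arrays lay above wild type, and Mdr2-KO overlapped both. The rise in the double knockout was 0.39 (SE 0.10, adjusted p = 0.0195), lost without wild-type array 1 (0.0588) or 3 (0.122). The differences of Mdr2-KO from wild type (0.17, adjusted p = 0.25) and between the knockouts (0.22, adjusted p = 0.111) did not pass. Map3k14, the kinase NIK of the noncanonical pathway, was higher in all 6 double-knockout arrays (6.55 to 6.77) than in wild type (6.31 to 6.45), by 0.22, without passing (adjusted p = 0.115).

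Among the transcription factor subunits, both members of the noncanonical pair rose in both knockouts. The canonical subunits measured, Rela and Rel, did not pass, and Nfkb1 was not analysed. No test compared the pathways. Nfkb2 read 7.29, 7.38 and 7.31 in wild type and 7.62, 7.71, 7.74, 7.66 and 7.86 in Mdr2-KO. The double-knockout range was 7.83 to 8.04 with a median of 7.92. Wild type was lowest without overlap, and of the Mdr2-KO arrays only array 5 reached into the range of the double knockout. The rise was 0.39 in Mdr2-KO (SE 0.07, 1.31-fold, adjusted p = 0.00129) and 0.60 in the double knockout (SE 0.07, 1.51-fold, adjusted p = 4.3e-05). Both calls held with any single array left out and under every other setting tried except, in Mdr2-KO, the 1.5-fold minimum.

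The step in Nfkb2 between the knockouts was 0.21 (SE 0.06, interval 0.09 to 0.32, adjusted p = 0.0353), near the threshold. It no longer passed without Mdr2-KO array 1 (adjusted p = 0.0955), 3 (0.0639) or 4 (0.0798), or without double-knockout array 1 (0.0535), 3 (0.0531), 4 (0.0515), 5 (0.0702) or 6 (0.0636). Without Mdr2-KO array 2 it was at the threshold (adjusted p = 0.05). It was also lost with each array centred on its median (0.0602).

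Relb, the partner of the processed Nfkb2 product, read 6.39, 6.35 and 6.40 in wild type and 6.59, 6.61, 6.65, 6.78 and 6.66 in Mdr2-KO. Its double-knockout values lay between 6.62 and 6.85, with a median of 6.81. Every knockout array lay above wild type. Relb rose by 0.28 in Mdr2-KO (SE 0.07, adjusted p = 0.0131) and 0.38 in the double knockout (SE 0.07, adjusted p = 0.00194), and both calls held with any single array left out. The knockouts differed by 0.10 (interval -0.02 to 0.23, adjusted p = 0.249).

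Rela, the main transactivating subunit of the canonical pathway, read 9.25 ± 0.19, 9.08 ± 0.10 and 9.17 ± 0.12 in wild type, Mdr2-KO and the double knockout. Its differences from wild type were -0.17 (interval -0.36 to 0.03, adjusted p = 0.207) and -0.08 (interval -0.27 to 0.12, adjusted p = 0.681). Rel, a subunit best known in lymphocytes, differed by 0.10 (interval -0.16 to 0.36, adjusted p = 0.572) and 0.14 (interval -0.11 to 0.40, adjusted p = 0.512), with a wild-type SD of 0.29. The intervals of Rel include the differences of Relb, 0.28 and 0.38.

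**Figure D4:**
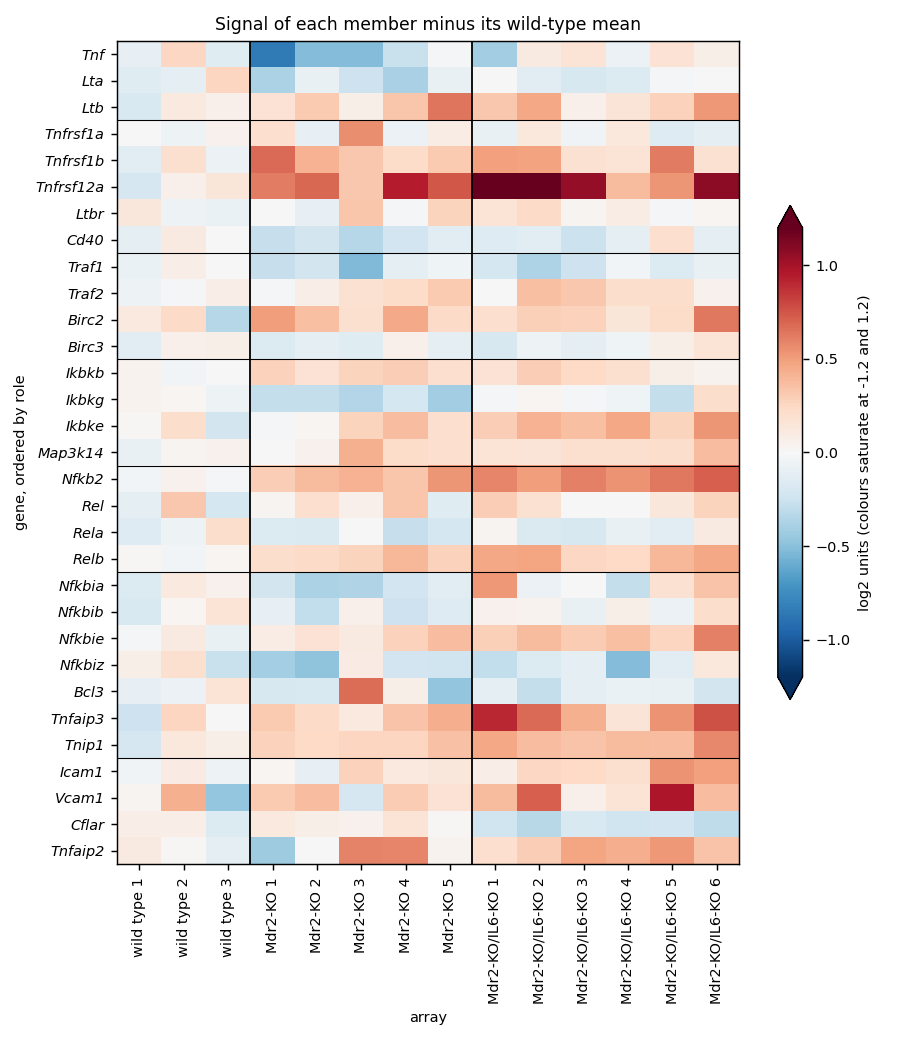
Log2 signal of each measured member (rows, ordered by role) on each of the 14 arrays (columns) minus the member's wild-type mean, red for above and blue for below, with colours saturated at -1.2 and 1.2. The rows of Tnfrsf12a, Nfkb2, Relb and Tnip1 are red across all knockout arrays, Tnf is blue in 4 of the 5 Mdr2-KO arrays, and Bcl3 is red on Mdr2-KO array 3.

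The IkB proteins and feedback inhibitors moved unevenly. Tnip1, which binds the ubiquitin-editing enzyme encoded by Tnfaip3 and restrains NF-kB, read 6.66, 6.99 and 6.93 in wild type and 7.14, 7.10, 7.12, 7.12 and 7.21 in Mdr2-KO. It ranged from 7.20 to 7.44 in the double knockout with a median of 7.23. All knockout arrays lay above wild type. The rise was 0.28 in Mdr2-KO (SE 0.08, adjusted p = 0.0202) and 0.42 in the double knockout (SE 0.08, adjusted p = 0.00198). The second call held under every setting except the 1.5-fold minimum. The first was lost without wild-type array 1 (0.111), the lowest, and in a fit of only the 2 groups compared (0.0522).

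Tnfaip3 itself read 6.88, 7.38 and 7.12 in wild type and 7.44, 7.36, 7.24, 7.47 and 7.56 in Mdr2-KO. It ranged from 7.28 to 8.03 in the double knockout with a median of 7.74. The lowest double-knockout array overlapped wild type, and the other arrays of that group lay above it. The rise in the double knockout was 0.58 (SE 0.14, 1.49-fold, adjusted p = 0.0134), lost without wild-type array 1 (0.0883). The differences in Mdr2-KO (0.29, adjusted p = 0.155) and between the knockouts (0.29, adjusted p = 0.131) did not pass.

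Nfkbie, which encodes IkB epsilon, read 6.63, 6.75 and 6.56 in wild type and 6.74, 6.82, 6.75, 6.92 and 7.02 in Mdr2-KO. It ranged from 6.90 to 7.25 in the double knockout with a median of 6.98. The groups stood in the order wild type, Mdr2-KO, the double knockout, with overlap at each step except between the first and the last. The rise in the double knockout was 0.37 (SE 0.08, adjusted p = 0.00971), lost without wild-type array 3 (0.0545). Mdr2-KO was 0.21 above wild type (adjusted p = 0.101) and 0.16 below the double knockout (adjusted p = 0.152).

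Nfkbia, the gene of IkB alpha and a rapid target of canonical NF-kB, read 9.24 ± 0.15, 8.97 ± 0.11 and 9.35 ± 0.29 in wild type, Mdr2-KO and the double knockout. The difference between the knockouts, 0.38 (SE 0.12, interval 0.13 to 0.63), did not pass (adjusted p = 0.0555), but did without double-knockout array 4 (0.024), with quantile normalization (0.0426) and without the genes of lowest mean (0.0464). Like Tnf, Nfkbia was lowest in Mdr2-KO by its mean. Nfkbib, the gene of IkB beta, differed from wild type by -0.15 and 0.04 (adjusted p = 0.273 and 0.855). Nfkbiz, a nuclear IkB protein, differed by -0.25 and -0.18 (adjusted p = 0.211 and 0.489). Bcl3, a nuclear IkB protein that coactivates, differed by -0.02 and -0.15 (adjusted p = 0.938 and 0.656). Its value on Mdr2-KO array 3, 9.53, lay above the 8.38 to 8.93 of the other Mdr2-KO arrays, and that array was also the highest for neutrophil markers. Whether the 2 are linked was not tested.

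Of the survival, adhesion and other targets, only Cflar passed. It encodes the FLIP protein, which holds back caspase-8 at TNF receptors. Cflar read 8.99, 8.99 and 8.75 in wild type and 9.03, 8.98, 8.96, 9.07 and 8.92 in Mdr2-KO. Double-knockout values ran from 8.58 to 8.73 with a median of 8.67, below every array of the other groups. The fall was -0.34 against Mdr2-KO (SE 0.06, adjusted p = 0.00323), which held with any single array left out, and -0.26 against wild type (SE 0.07, adjusted p = 0.0186), lost without wild-type array 1 (0.096) or 2 (0.0864). Mdr2-KO differed from wild type by 0.08 (interval -0.06 to 0.23).

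The probes of Cflar differed in how far they moved. Against Mdr2-KO, a second probe gave -0.13 (adjusted p = 0.254 over all probes) and the remaining probe -0.37 (adjusted p = 0.0212). Against wild type, they gave -0.21 (adjusted p = 0.148) and -0.10 (adjusted p = 0.643). All probes had the same sign in these comparisons, but with the mean of the probes the call against wild type was lost (adjusted p = 0.0993). Which transcripts each probe reads is not given in the sources used here.

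The adhesion molecules Icam1 and Vcam1, which recruit leukocytes, did not pass. Icam1 read 8.34 ± 0.09, 8.43 ± 0.14 and 8.64 ± 0.18, and its difference of 0.30 in the double knockout against wild type had an interval of 0.08 to 0.52 (adjusted p = 0.0723). Vcam1 was 0.44 above wild type in the double knockout (adjusted p = 0.186), with arrays from 8.10 to 8.99 in wild type and from 8.62 to 9.53 in the double knockout, which overlapped. Tnfaip2, a TNF-induced protein, was higher in every double-knockout array (8.28 to 8.60) than in wild type (7.96 to 8.18), by 0.38, without passing (adjusted p = 0.18), and ranged from 7.65 to 8.67 in Mdr2-KO.

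The arrays themselves differed in how the members stood. Within wild type, array 2 was the highest for 17 of the 31 members and array 1 the lowest for 16. Among the 7 risers array 1 was the lowest wild-type array for 4. Within the double knockout, array 6 was the highest for 13 members. Without wild-type array 2, highest for lymphocyte markers, and Mdr2-KO array 3, highest for neutrophil markers, together, 6 members passed in Mdr2-KO, 7 in the double knockout and 1, Cflar, between the knockouts. In Mdr2-KO, Ikbkb (adjusted p = 0.0777) and Ikbkg (0.0725) no longer passed and Birc2 did, and in the double knockout Cflar no longer did (0.0959). The shares of all genes called in that fit are not given here.

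Other genes of the pathway, 109 measured of 115 listed in 5 lists, give the rest of the picture. In Mdr2-KO against wild type 4 were higher and 10 lower (12.8% called), in the double knockout 8 and 6 (12.8%), and between the knockouts 8 and 4 (11.0%), beside 21.0%, 12.3% and 8.76% of all genes. Of 13 other TNF superfamily ligands 0 rose and 2 fell in Mdr2-KO (0 and 4 at an unadjusted p under 0.05). Their median there was -0.17 beside -0.07 over all genes. In the double knockout 0 of these ligands rose and 1 fell (1 and 4). The shares lower were 15.4% and 7.69%, beside 12.1% and 5.33% of all genes. Tnfsf4, Tnfsf8, Tnfsf9, Tnfsf14, Tnfsf18, Fasl, Cd40lg and Cd70 among the ligands had means under the background. The fall of Fasl in Mdr2-KO was called in 4 of 14 fits with 1 array left out. Of 22 other receptors 0 rose and 4 fell in Mdr2-KO (1 and 12 at an unadjusted p under 0.05, median -0.20). In the double knockout 1 rose and 2 fell (median -0.04), and 3 were higher there than in Mdr2-KO (median 0.13). The shares lower against wild type were 18.2% and 9.09%, beside 12.1% and 5.33% of all genes. Between the knockouts 13.6% were higher, beside 5.04% of all genes. Eda2r, 1 of these 3, was called in 5 of 14 fits with 1 array left out. In Mdr2-KO, 21 of these 22 receptors had a difference below 0, beside 12575 of all 19938 genes. Tnfrsf8, Tnfrsf17, Tnfrsf23, Cd27 and Eda2r among them had means under the background. Dim genes lay lower in this comparison: without the third of genes of lowest mean, the median of all genes was -0.02 and not -0.07. The part of low signal in the receptor count was not tested. T and NK and B cell markers, which passed downward beside these counts, were given above, and their part was not tested.

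Tnfrsf11b, the decoy receptor osteoprotegerin, fell from 7.17 ± 0.15 (wild type) to 6.42 ± 0.09 in Mdr2-KO (-0.76, SE 0.08, adjusted p = 3.57e-05) and 6.55 ± 0.10 in the double knockout (-0.63, SE 0.08, adjusted p = 0.000134). Tnfrsf10b, a death receptor for TRAIL, read 5.95 ± 0.21, 6.13 ± 0.07 and 6.50 ± 0.08. It was higher in the double knockout than in wild type (0.55, SE 0.08, adjusted p = 0.00048) and than in Mdr2-KO (0.37, SE 0.07, adjusted p = 0.00635). All 4 calls held with any single array left out.

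Of 33 other adaptors, ubiquitin enzymes and kinases, 2 rose and 2 fell in Mdr2-KO and 2 and 3 in the double knockout. Between the knockouts 1 was higher and 4 were lower. The shares called were 12.1%, 15.2% and 15.2%, beside 21.0%, 12.3% and 8.76% of all genes. Casp8, the protease that the Cflar product restrains, fell from 10.32 ± 0.15 to 9.89 ± 0.08 in Mdr2-KO (adjusted p = 0.00629) and 9.73 ± 0.16 in the double knockout (adjusted p = 0.000752). Xiap, an inhibitor of caspases, read 8.98 ± 0.17 in Mdr2-KO and 8.51 ± 0.11 in the double knockout (-0.46, SE 0.09, adjusted p = 0.00603), and so fell between the knockouts, as Cflar did. Bcl10, an adaptor of antigen receptor signalling to NF-kB, rose by 0.45 in Mdr2-KO (SE 0.07, adjusted p = 0.00108). These calls held with any single array left out.

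Of 14 other inhibitors and TNF-induced proteins, 1 rose and 1 fell in Mdr2-KO and 2 rose in the double knockout. Between the knockouts 1 was higher in the double knockout. The shares called were 14.3%, 14.3% and 7.14%, beside 21.0%, 12.3% and 8.76% of all genes. Otud7b, a deubiquitinase that restrains noncanonical NF-kB, rose from 6.88 ± 0.08 to 7.31 ± 0.10 in Mdr2-KO (0.44, SE 0.07, adjusted p = 0.000813) and 7.42 ± 0.06 in the double knockout (0.55, SE 0.07, adjusted p = 0.00013). Of 27 other textbook targets, 1 rose and 1 fell in Mdr2-KO, 3 rose in the double knockout and 2 were higher between the knockouts, or 7.41%, 11.1% and 7.41% called, beside the 21.0%, 12.3% and 8.76% of all genes. The medians were 0.04, 0.14 and 0.17, beside -0.07, -0.02 and 0.06. Bcl2l1, a survival gene, rose from 7.10 ± 0.11 to 7.73 ± 0.07 and 7.71 ± 0.22 (adjusted p = 0.00164 and 0.00181). The calls of both genes held with any single array left out.

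Calls of the chemokine genes Cxcl10 and Ccl2 each depended on several single arrays. Cxcl10, which draws T cells, was lower in Mdr2-KO (7.68 ± 0.48) than in wild type (8.70 ± 0.44), by -1.02 (SE 0.33, adjusted p = 0.041). It did not pass without wild-type array 2 (0.138) or 3 (0.094), nor without Mdr2-KO array 1 (0.0675), 2 (0.053) or 3 (0.0775), nor without double-knockout array 4 (0.0512). Nor did it pass with trend and robust moderation (0.0727) or with array weights (0.0704). With wild-type array 2 and Mdr2-KO array 3 both left out, its difference was -0.57 (adjusted p = 0.221). Ccl2, which draws monocytes, was higher in the double knockout (8.28 ± 0.61) than in Mdr2-KO (7.33 ± 0.44), by 0.96 (SE 0.26, adjusted p = 0.0344). That call was lost without double-knockout array 2 (0.0658), Mdr2-KO array 1 (0.0851) or Mdr2-KO array 3 (0.0864), and without Mdr2-KO array 2 it was at the threshold (0.05). It was also lost with trend and robust moderation (0.0603) and with those 2 arrays left out (0.0883).

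**Figure D5:**
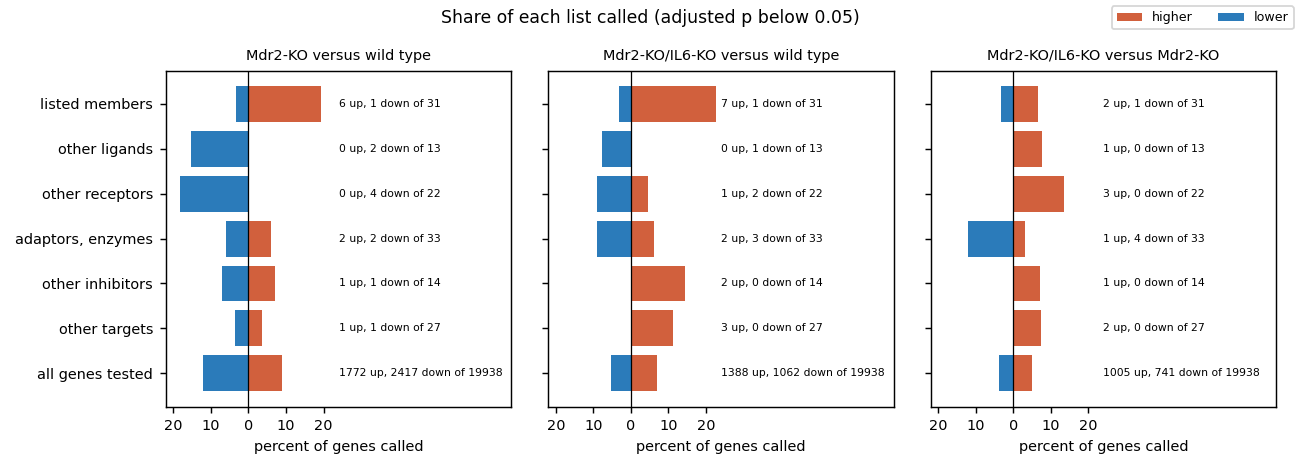
Percent of each list called (adjusted p below 0.05) as higher (red, right) or lower (blue, left) in the 3 comparisons, with the counts beside the bars and all 19938 genes tested at the bottom. Against wild type the listed members have 6 and 7 calls upward and 1 downward, whereas the other receptors have 0 and 1 upward and 4 and 2 downward.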

How the data were processed

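Per the submitters' processing notes, the authors used Partek and RMA, with no version stated in the sources used here, and deposited 1 log2 value per probe and array. No values were renormalized. Of 35557 probes 21789 name 1 gene. A gene with several such probes was read from the one of highest mean. Genes were tested in limma 3.58.1 (R 4.3.3) with 3 group means over all 14 arrays, empirical Bayes moderation, 2-sided, with Benjamini-Hochberg adjustment over 19938 genes and no filter on dim genes, at an adjusted p of 0.05. Array medians were 6.15 to 6.24; the number of arrays limits the precision. The labels name no batch.

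The members, the lists and the alternatives were chosen with earlier results of these data known. The rule for named genes gave values per array for members past the threshold and for Tnf, and up to 4 members of each pathway list past the threshold. The fit was tested on simulated data of these group sizes. In the 3 comparisons it recovered 65%, 72% and 86% of differences of 0.5, and 99%, 98% and 99% of differences of 1. Smaller differences, as most members had, were not simulated. Alternatives were quantile normalization, median centring, a filter on dim genes, the mean of a gene's probes, trend and robust moderation, array weights, only the groups compared, a 1.5-fold minimum and each array left out. A fit without wild-type array 2 and without Mdr2-KO array 3, and fits of the other probes of Cflar and Birc2, were added after seeing the data. Promoter windows came from RefSeq (GRCm38.p6). Python 3.11.15 and matplotlib 3.10.9 were used.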

Additional observations from a re-analysis of the deposited data

Results flagged for a closer look

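In 4 of 62 groups of members tested, 1 array stood far from the others of its group, where chance gives about 5% of groups. Cd40 read 6.98 on double-knockout array 5 beside 6.52 to 6.67 on the others. Birc2 read 8.14 on double-knockout array 6 beside 7.65 to 7.79, and Map3k14 read 6.77 on the same array beside 6.55 to 6.61. Birc3 read 8.35 on Mdr2-KO array 4 beside 8.13 to 8.18.

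For 3 members the difference from wild type was itself different in the knockouts, by the test between them. Ikbkg was -0.31 from wild type in Mdr2-KO and -0.02 in the double knockout, a difference of 0.29 (limma, adjusted p = 0.026). For Nfkb2 the values were 0.39 and 0.60, a difference of 0.21 (adjusted p = 0.0353), and for Cflar 0.08 and -0.26, a difference of -0.34 (adjusted p = 0.00323). Of the 3, Cflar alone kept this call with each array left out in turn.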

How the results depend on the processing

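Over 23 alternatives per comparison no call of a member changed sign. Of the 18 calls, 6 held under every alternative but the 1.5-fold minimum: Tnfrsf12a in the double knockout, Nfkb2 and Relb in both knockouts and Tnip1 in the double knockout, all against wild type. With each array left out in turn, the number of members called ranged from 3 to 8 in Mdr2-KO and 5 to 9 in the double knockout against wild type, and from 1 to 4 between the knockouts. With a minimum of 1.5-fold the counts were 1, 2 and 0 (between the knockouts 11 members had an unadjusted p under 0.05 in limma, none at that size). With wild-type array 2 and Mdr2-KO array 3 both left out, an alternative chosen after seeing the data, 1 member was called between the knockouts. The cause of these changes was not tested. Array weights gave 8, 11 and 4. The shares of all genes called under these alternatives are not given here. The median difference of all genes in the 3 comparisons was -0.07, -0.02 and 0.06 as deposited. With quantile normalization it was -0.06, -0.004 and 0.06, and with median centring -0.05, -0.01 and 0.04. No paired analysis was possible because the groups share no replicate numbers in the labels. Signal over the background limits Lta and Traf1 among the members and, in the other lists, genes such as Fasl, Cd27 and Eda2r. The 3 wild-type arrays limit every comparison with wild type.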
